A study of Mus musculus with 16 samples.

Results

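Transcripts of cytotoxic lymphocytes were followed in macrophages sorted from mouse gliomas: Gzma, Gzmb, Nkg7, Prf1, Klrd1, Klrk1 and Ncr1. They are 7 of 12394 genes measured on the arrays. Each was read from the probe sets annotated to its symbol alone, 8 probe sets in all, taking the 1 with the highest mean over the 16 arrays. Values are on the deposited log2 scale, so a difference of 1 is a 2-fold difference.

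The mice were 8 given BLZ945, a kinase inhibitor of the CSF-1 receptor, and 8 given its vehicle, captisol, each by gavage daily for 7 days. Every mouse in both groups was Nestin-Tv-a;Ink4a/Arf-/- on a mixed background and carried a tumour started in the brain with DF-1 cells releasing RCAS-PDGF-B-HA, a virus that infects the Nestin-expressing cells carrying its receptor. The BLZ945 group held 3 males and 5 females, 4 mice aged 13.14 weeks and 4 aged 11.29 weeks. The Vehicle group held 4 males and 4 females, 4 mice aged 11.29 weeks, 2 aged 11.43 weeks and 2 aged 12.29 weeks. The dose is labelled without a body weight. All tumours were driven by PDGF-B in a background lacking Ink4a/Arf, so the values describe that model alone.

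Cytotoxic lymphocytes kill by releasing granules. Perforin, encoded by Prf1, opens the target membrane, and granzymes, serine proteases such as those encoded by Gzma and Gzmb, enter through it. Natural killer cells carry Ncr1 (NKp46), Klrd1 (CD94, the partner of NKG2 chains) and Klrk1 (NKG2D), and cytotoxic T cells share several of these genes. NKG2D has also been described on activated mouse macrophages. The sort kept CD11b-positive, Gr1-negative cells, and mature mouse natural killer cells carry CD11b, so the gate does not by itself remove them.

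None of the 7 genes passed the test between BLZ945 and Vehicle (adjusted p below 0.05, with adjustment across every gene tested), where 7.94% of genes did, 2.6% higher and 5.34% lower. Nor did any member separate the groups without overlap, which 0.315% of genes did with BLZ945 higher and 1.04% with BLZ945 lower. Over all mice both granzymes and Nkg7 averaged higher in BLZ945 mice, while Klrd1 and Klrk1 averaged lower. Among mice of 11.29 weeks, the only age in both groups, all 7 members averaged higher in BLZ945 mice, as did 58.1% of genes. Granule genes were also set against receptor genes in the same mouse, a split made after the values were seen. Relative to Klrk1, the receptor with the most negative difference, both granzymes were higher in every BLZ945 mouse than in any Vehicle mouse. Of all genes, 0.0323% separated the groups in this way relative to Klrk1. From mouse to mouse within the groups, all 21 pairs of members had positive correlations, which were weaker for Klrd1 among Vehicle mice and for Prf1 without 1 mouse. A bulk RNA sample cannot tell fewer cells of a type apart from less RNA per cell.

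The sequences upstream of the genes are shown because the members averaged in different directions over all mice while their deviations were positively correlated. The RefSeq promoter table (GRCm38.p6) held 6 of the 7 members and no entry for Klrd1. The 250 bases before the start site are printed on the gene's own strand, with matches to 4 short motifs in capitals. The motifs were the T-box core GTGTGA, which reads TCACAC on the other strand, the Runx core TGTGGT, which reads ACCACA, the Ets core GGAAGT, which reads ACTTCC, and the cyclic AMP response element half-site TGACGT, which reads ACGTCA. Both strands were searched, and no matches overlapped in these windows. The windows lie at chr13:113100982-113101231, minus strand for Gzma, chr14:56262335-56262584, minus strand for Gzmb, chr7:43436888-43437137, plus strand for Nkg7, chr10:61297586-61297835, plus strand for Prf1 and chr6:129623865-129624114, minus strand for Klrk1.
Gzma: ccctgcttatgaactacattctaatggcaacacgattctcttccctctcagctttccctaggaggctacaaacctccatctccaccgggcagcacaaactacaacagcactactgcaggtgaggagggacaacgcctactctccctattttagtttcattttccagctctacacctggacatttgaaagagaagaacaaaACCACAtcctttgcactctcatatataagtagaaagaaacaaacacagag
Gzmb: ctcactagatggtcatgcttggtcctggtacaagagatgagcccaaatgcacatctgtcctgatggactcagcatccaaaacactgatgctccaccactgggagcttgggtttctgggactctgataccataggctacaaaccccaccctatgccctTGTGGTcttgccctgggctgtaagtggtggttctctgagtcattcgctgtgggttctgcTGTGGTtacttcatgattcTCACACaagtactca
Nkg7: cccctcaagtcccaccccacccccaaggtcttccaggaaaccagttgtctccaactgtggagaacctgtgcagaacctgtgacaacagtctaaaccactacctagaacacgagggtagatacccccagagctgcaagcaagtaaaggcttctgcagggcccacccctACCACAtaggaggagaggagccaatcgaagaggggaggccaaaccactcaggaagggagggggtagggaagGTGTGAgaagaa
Prf1: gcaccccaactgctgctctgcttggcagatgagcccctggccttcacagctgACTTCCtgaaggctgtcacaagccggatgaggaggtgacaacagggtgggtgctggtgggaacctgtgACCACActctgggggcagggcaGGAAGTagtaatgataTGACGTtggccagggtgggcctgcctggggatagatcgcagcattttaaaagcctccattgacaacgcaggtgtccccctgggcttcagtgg
Klrk1: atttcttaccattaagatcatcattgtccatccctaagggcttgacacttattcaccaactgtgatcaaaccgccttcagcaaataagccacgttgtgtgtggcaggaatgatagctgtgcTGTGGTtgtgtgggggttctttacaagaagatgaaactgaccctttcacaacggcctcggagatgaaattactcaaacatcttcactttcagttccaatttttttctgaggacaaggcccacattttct

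A Runx core lay in all 6 promoters searched, Ncr1 included, against 4614 of the 32851 promoter windows of the table. In Gzma it lay 50 bases before the start site, and in Klrk1 129 bases before it. Gzmb held it at 93 and 34 bases before the start site, with a T-box core at 15 bases. Nkg7 held a Runx core at 83 bases and a T-box core at 12 bases, and Ncr1 held both motifs as well. The T-box core occurred in 12.3% of all windows. Prf1 held no T-box core in this window but held Ets cores at 198 and 108 bases, a motif found in 19.7% of windows, and the cyclic AMP half-site at 92 bases, found in 6.47%. Both granzymes, which averaged higher in BLZ945 mice, and Klrk1, which averaged lower over all mice, thus shared the Runx letters. These matches describe letters and not binding. Klrd1 and Klrk1 are neighbours on chromosome 6. Gzma lies beside Gzmk on chromosome 13 and Gzmb beside Gzmc on chromosome 14.

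The arrays were alike in level, with medians of 5.77 to 5.84 in BLZ945 mice and 5.74 to 5.87 in Vehicle mice. Csf1r, a macrophage gene and the target of BLZ945, averaged 13.66 ± 0.12 in BLZ945 mice and 13.61 ± 0.14 in Vehicle mice (SD, n = 8 each). Its difference of 0.06 had an adjusted p of 0.73, whereas 3 other macrophage and microglia markers fell, among them Itgam, the gene of the sorting marker CD11b. The labelled initial tumour volume, which has no unit, was 41.3 to 132.3 in BLZ945 mice and 11.9 to 27.3 in the 6 Vehicle mice with a value. The 2 ranges did not overlap, and every BLZ945 value lay above 40, the upper limit in mm3 that the protocol gives for enrolment, so what the label measures is uncertain. With log2 volume as covariate in the 14 mice with a value, 15 genes of 12394 passed and no member was among them. All 7 members peaked, among BLZ945 mice, in mouse BLZ945 6, as did 14.4% of all genes, and 6 of them had their highest value of all 16 mice there, as did 6.77% of genes. Among Vehicle mice, 6 of 7 members peaked in Vehicle 2, as did 22.6% of all genes. The other Prf1 probe set peaked in neither BLZ945 6 nor Vehicle 2. The differences between the agents are given with and without these mice. Both are males, and the sex comparison was not repeated without them.

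Gzma encodes granzyme A, a trypsin-like granule protease. It had a lowest value of 6.01, a median of 6.77 and a highest value of 10.47 in BLZ945 mice, against 4.40, 5.35 and 7.69 in Vehicle mice. The highest values came from BLZ945 6 and Vehicle 2, and the groups overlapped only through Vehicle 2, since the 7 remaining Vehicle mice lay below every BLZ945 mouse. The means were 7.34 ± 1.52 in BLZ945 mice and 5.51 ± 0.98 in Vehicle mice (SD, n = 8 each). The difference was 1.83 (SE 0.56, 95% interval 0.66 to 2.99), a ratio of 3.55, with an adjusted p of 0.0506 by limma. The exact two-sided permutation test of this gene alone gave p = 0.00917. Without Vehicle 2 the difference was 2.14 and passed the test, with an adjusted p of 0.0148. Without BLZ945 6 it was 1.38 and also passed, with an adjusted p of 0.0471.

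Gzmb encodes granzyme B, which cleaves after aspartate and activates caspases. It ran from 4.87 through a median of 5.73 to 9.51 in BLZ945 mice, against 4.42, 4.73 and 6.91 in Vehicle mice. BLZ945 6, 1 and 2 lay above all Vehicle mice, and the other 5 BLZ945 mice lay below Vehicle 2. The difference was 1.31 (SE 0.57), with an adjusted p of 0.173 by limma and an exact permutation p of 0.0555. Without BLZ945 6 the difference was 0.85, and without Vehicle 2 it was 1.58.

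Prf1 encodes perforin. It ran from 4.21 through 4.89 to 6.33 in BLZ945 mice, against 4.21, 4.41 and 5.12 in Vehicle mice. The groups overlapped over most of their range, and BLZ945 6 and BLZ945 4 were the only BLZ945 mice above all Vehicle mice. The difference was 0.42 (SE 0.23), with an adjusted p of 0.288 by limma. It was 0.23 without BLZ945 6 and 0.50 without Vehicle 2. The other Prf1 probe set gave a difference of 0.23, with an adjusted p of 0.313. There BLZ945 6 had 4.48, and the highest BLZ945 value was 5.22, in BLZ945 3. Vehicle 2 had 4.66 there, below Vehicle 3 at 4.71. The Prf1 peaks in BLZ945 6 and Vehicle 2 were thus seen in the brighter probe set alone.

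Nkg7 encodes a membrane protein of cytotoxic granules needed for their exocytosis. It ran from 4.95 through 5.34 to 7.27 in BLZ945 mice, against 3.92, 4.49 and 5.90 in Vehicle mice. All 8 BLZ945 mice lay above the Vehicle median, and 6 Vehicle mice lay below every BLZ945 mouse. The difference was 1.03 (SE 0.32), with an adjusted p of 0.0588 by limma and an exact permutation p of 0.0132. Without Vehicle 2 it was 1.20 and passed the test, with an adjusted p of 0.019. Without BLZ945 6 it was 0.80 and did not pass, with an adjusted p of 0.0742.

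Klrd1 encodes CD94, the common chain of the NKG2A and NKG2C receptors, and is also found in dendritic cells. It ran from 4.38 through 5.70 to 8.15 in BLZ945 mice, against 5.30, 6.64 and 7.21 in Vehicle mice. The BLZ945 mice lay on both sides, 3 above and 3 below all Vehicle mice. The difference was -0.44 (SE 0.51), with an adjusted p of 0.616 by limma. It was -0.73 without BLZ945 6 and -0.37 without Vehicle 2.

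Klrk1 encodes NKG2D, which binds stress-induced ligands. It ran from 3.87 through 5.44 to 8.03 in BLZ945 mice, against 5.32, 6.29 and 8.04 in Vehicle mice. No BLZ945 mouse lay above all Vehicle mice, and 3 lay below all of them. The difference was -0.65 (SE 0.46), with an adjusted p of 0.404 by limma. It was -0.99 without BLZ945 6 and -0.41 without Vehicle 2, and neither passed (adjusted p = 0.108 and 0.541).

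Ncr1 encodes NKp46, an activating receptor of natural killer cells. It was dim, running from 3.12 through 3.81 to 4.88 in BLZ945 mice, against 3.14, 3.31 and 3.81 in Vehicle mice. BLZ945 mice lay above the Vehicle median in 7 of 8 cases, but the groups overlapped. The difference was 0.41 (SE 0.19), with an adjusted p of 0.214 by limma and an exact permutation p of 0.0556. It was 0.26 without BLZ945 6 and 0.47 without Vehicle 2.

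**Figure D1:**
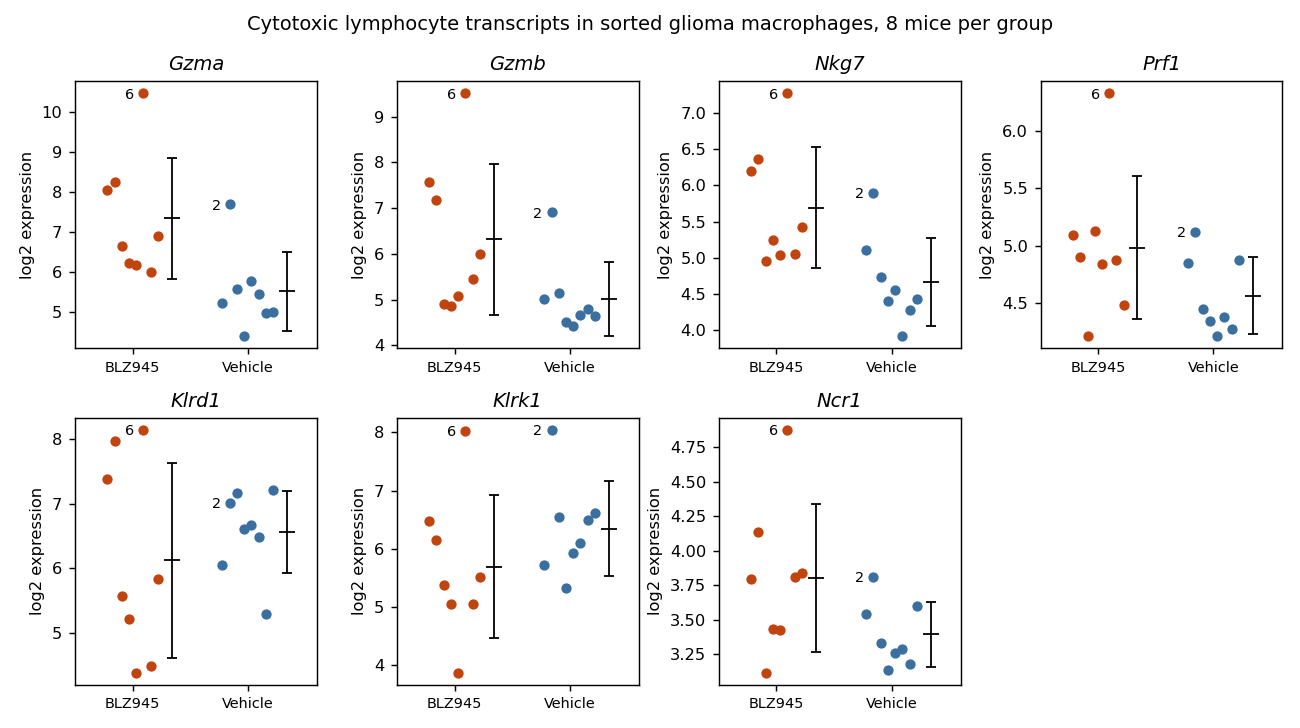
Deposited log2 expression of the 7 members (vertical axes) in each BLZ945 mouse (left, orange) and each Vehicle mouse (right, blue); bars are mean and SD over 8 mice, and the labelled points are BLZ945 6 and Vehicle 2. Among BLZ945 mice the top point is mouse 6 in every panel, and among Vehicle mice it is mouse 2 in every panel except Klrd1.

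Across the set, 5 of 7 differences lay above 0, as did 61.1% of all genes. Their median was 0.42, against 0.07 over all genes. At an unadjusted p under 0.05 by limma, 4 of 7 members passed, against 22.6% of all genes. The SD over mice was larger in BLZ945 than in Vehicle for all 7 members, as it was for 57.3% of all genes. The median ratio of the SDs was 1.86 among the members and 1.07 over all genes.

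The granule genes and the receptor genes were set against each other within each mouse, since a shift common to both genes in a mouse cancels there. The 4 granule genes and the 3 receptors gave 12 pairs, a split by role made after the values were seen. Each was tested by the exact two-sided permutation test, adjusted over the 12. Only the difference between groups is read, because the level of a log ratio between probe sets depends on the probes.

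Gzma relative to Klrk1 ranged from 0.96 to 2.44 in BLZ945 mice (median 1.46), against -1.63 to -0.15 in Vehicle mice (median -0.78). The groups did not overlap, Vehicle 2 and BLZ945 6 included. The means differed by 2.48, with an exact permutation p of 0.000155, the smallest that the labellings allow, and an adjusted p of 0.000932. Without each mouse in turn the difference stayed between 2.37 and 2.58. Among mice of 11.29 weeks it was 2.65, with the groups apart there too (exact permutation p = 0.0286, the smallest that 4 against 4 allows). It was 2.56 in males and 2.47 in females.

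Gzmb relative to Klrk1 ranged from -0.46 to 1.48 in BLZ945 mice, against -1.98 to -0.69 in Vehicle mice. Here too the groups did not overlap. The means differed by 1.96, with an adjusted exact permutation p of 0.000932. Of 12394 genes, 4 separated the groups in this way relative to Klrk1, or 0.0323%, and 2 of them were Gzma and Gzmb. The other two were Ccl5, a chemokine made by cytotoxic lymphocytes, and Slamf8, a receptor of myeloid cells, both named after their values were seen. Conversely, Gzma separated the groups relative to 0.492% of genes, with Klrk1 the only member among them.

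Relative to Klrk1, Nkg7 was higher by 1.68 in BLZ945 mice (adjusted exact permutation p = 0.00124) and Prf1 by 1.08 (adjusted p = 0.0207). Relative to Klrd1, Gzma was higher by 2.27 (adjusted exact permutation p = 0.0014), Gzmb by 1.75 (adjusted p = 0.00522) and Nkg7 by 1.46 (adjusted p = 0.00715). Prf1 relative to Klrd1 differed by 0.86 and did not pass (adjusted exact permutation p = 0.122). Relative to Ncr1, Gzma was higher by 1.42 (adjusted exact permutation p = 0.0187) and Nkg7 by 0.61 (adjusted p = 0.0207). Gzmb differed from Ncr1 by 0.90 (adjusted exact permutation p = 0.0923) and Prf1 by 0.01 (adjusted p = 0.941), so neither passed. In all, 9 of the 12 pairs passed. The pairs share genes and are not independent, and the share of other gene pairs passing this test was not computed. Klrk1 and Klrd1 were the members with negative differences, which favours a pass for pairs with them. Unequal change within an array does not show which of the genes changed.

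**Figure D2:**
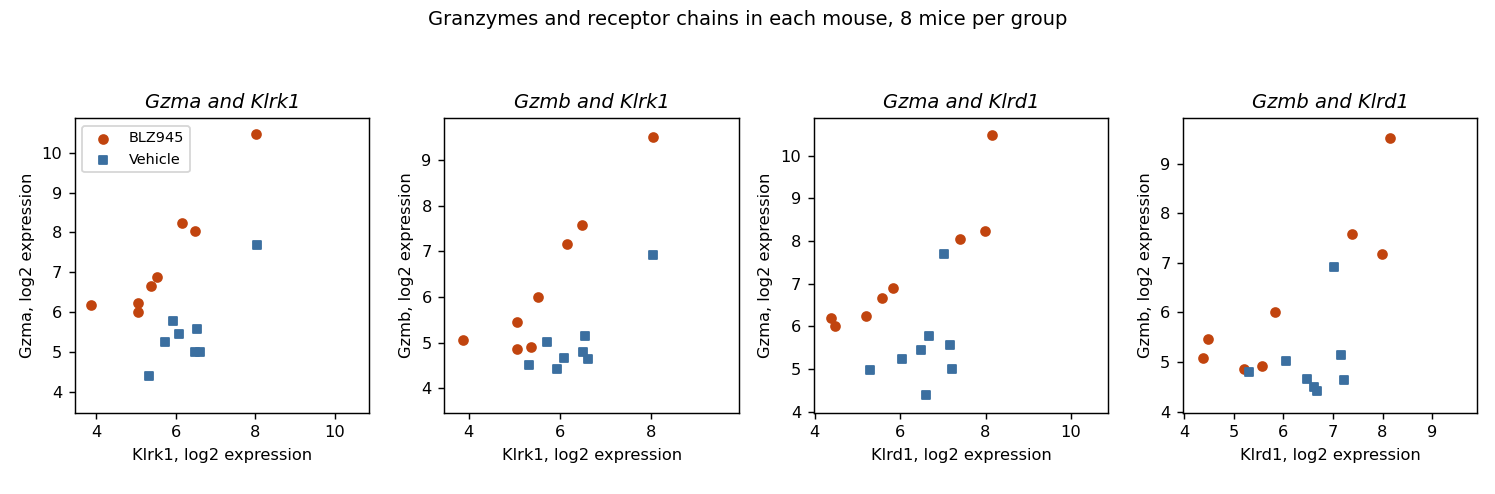
Log2 expression of Gzma or Gzmb (vertical axes) against Klrk1 or Klrd1 (horizontal axes), with 1 point per mouse, orange circles for BLZ945 and blue squares for Vehicle. Each granzyme's log2 value minus that of Klrk1 is higher in every BLZ945 mouse than in any Vehicle mouse. The group means of this quantity differ by 2.48 for Gzma and 1.96 for Gzmb.

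The members were then compared from mouse to mouse as deviations from their group means, in 42 relations adjusted together, of which 21 were pairs of members. All 21 member pairs had positive Pearson r, from 0.51 for Prf1 and Klrd1 to 0.94 for Gzma and Gzmb. Of these, 17 passed at an adjusted permutation p under 0.05 by both Pearson and Spearman coefficients. Gzma and Gzmb gave r = 0.94 and rho = 0.83 (adjusted permutation p = 0.00098 and 0.00567), and r = 0.86 without the 2 mice farthest from the median. Gzma and Klrk1 gave r = 0.91 and rho = 0.83 (adjusted permutation p = 0.00098 and 0.00567), r = 0.94 within BLZ945 mice and 0.84 within Vehicle mice, and r = 0.83 without the 2 farthest, although their means differed in opposite directions between the groups. Without BLZ945 6 the 21 coefficients ranged from 0.22 to 0.90, with Prf1 at 0.22 with Klrd1, 0.38 with Klrk1 and 0.38 with Gzma. Within Vehicle mice Klrd1 had r = 0.34 with Gzma, 0.25 with Gzmb, 0.27 with Nkg7 and 0.31 with Klrk1. The deviations were not adjusted for age, which differed among the BLZ945 mice. The other Prf1 probe set was not used in these relations.

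**Figure D3:**
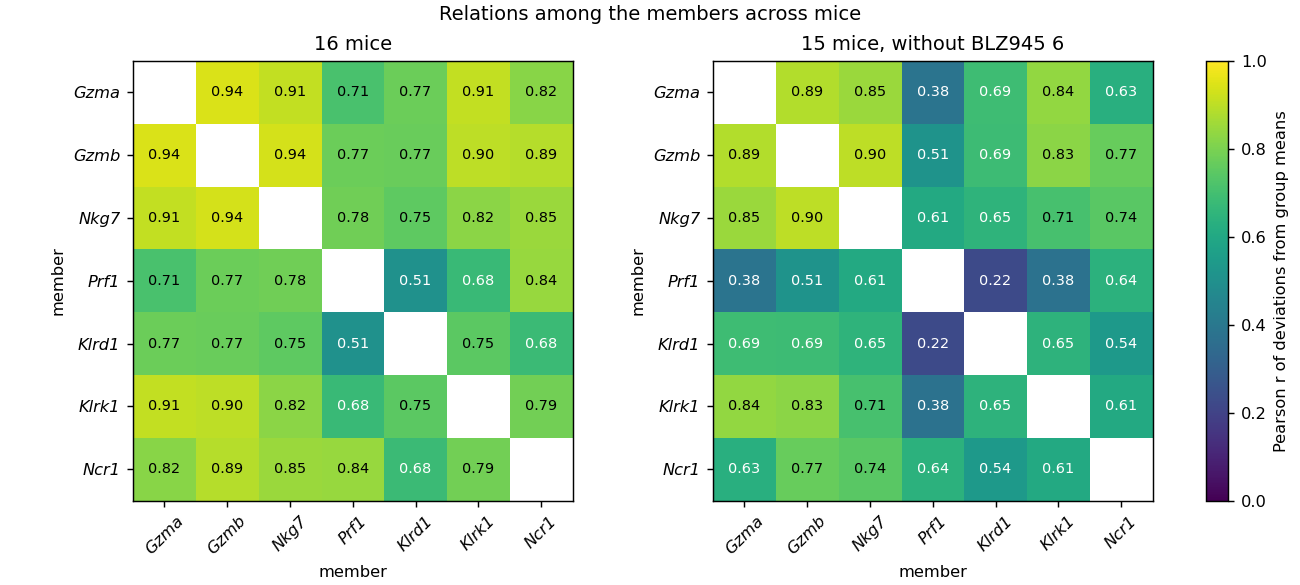
Pearson r between members over deviations from the group means, for all 16 mice (left) and for 15 mice without BLZ945 6 (right), with colour and number giving r. All 21 pairs are positive in both panels, and the lowest value is 0.51 on the left and 0.22 on the right.

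The deviations were also set against the spread of each array's values, with r between -0.17 and 0.26 and no relation passing. Within the groups these coefficients had opposite signs, from 0.14 to 0.63 in BLZ945 mice and from -0.87 to -0.36 in Vehicle mice. For Prf1 the coefficient over both groups was -0.79 without BLZ945 6. Against the mean of 15 natural killer markers other than the members, r lay between 0.04 and 0.45 with no Pearson coefficient passing. Within BLZ945 mice these coefficients ran from -0.38 to 0.26, with Prf1 alone above 0. Within Vehicle mice all were positive, from 0.44 to 0.83. Over both groups Prf1 alone passed by rank against these markers, with rho = 0.60 (adjusted permutation p = 0.0433). Against the mean of 18 T cell markers, Prf1 gave r = 0.73 (adjusted permutation p = 0.00189) and rho = 0.77, with r = 0.76 without the 2 farthest mice, and no other member passed by either coefficient.

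The BLZ945 mice were of 2 ages, with 4 mice each. All 7 members averaged lower at 13.14 weeks than at 11.29 weeks within BLZ945, against 44.8% of all genes. None passed the adjusted test, where 0.0403% of genes did, and none separated the ages, which 4.43% of genes did with the older mice lower, while 5 of 7 had an unadjusted p under 0.05 by limma, against 18.7% of genes. Klrd1 averaged 4.98 ± 0.68 at 13.14 weeks and 7.27 ± 1.18 at 11.29 weeks (SD, n = 4 each), a difference of -2.30 with an adjusted p of 0.141 by limma. Gzma averaged 6.33 ± 0.39 at 13.14 weeks and 8.35 ± 1.58 at 11.29 weeks, a difference of -2.02 with an adjusted p of 0.184 by limma. The labels name no other cohort or date per mouse, so age and any cohort it stands for cannot be told apart.

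Among mice of 11.29 weeks alone, 4 per agent, all 7 differences lay above 0, as did 58.1% of all genes. Gzma, Gzmb and Nkg7 did not overlap between the agents, which 4.05% of genes did with BLZ945 higher. Gzma had values of 8.04, 8.24, 6.65 and 10.47 in BLZ945 mice, against 4.40, 5.78, 5.46 and 4.98 in Vehicle mice. Every BLZ945 mouse thus lay above every Vehicle mouse. The differences were 3.20 for Gzma (adjusted p = 0.0686 by limma), 2.70 for Gzmb (adjusted p = 0.144) and 1.91 for Nkg7 (adjusted p = 0.0712). Klrd1 and Klrk1, which averaged lower over all 16 mice, averaged higher by 1.01 and 0.55 here, with adjusted p of 0.409 and 0.599 by limma. Klrd1 also lay above 0 in males alone, at 0.47, and both genes did with tumour volume as covariate, at 0.62 and 0.071. With sex and age cohort both as covariates, Gzma, Gzmb and Nkg7 passed, with differences of 3.42, 2.96 and 2.06 and adjusted p of 0.00831, 0.0192 and 0.00294 by limma.

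**Figure D4:**
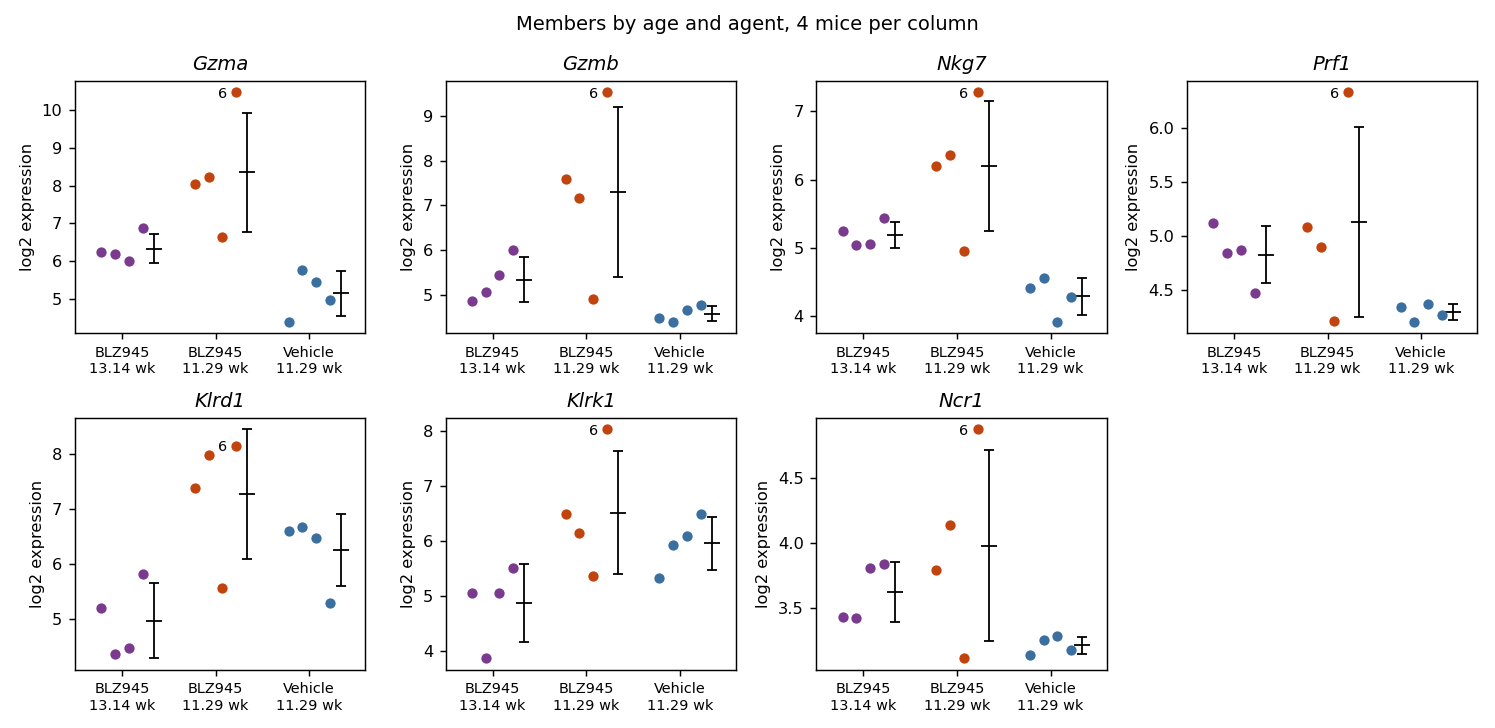
Log2 expression of the 7 members (vertical axes) in BLZ945 mice of 13.14 weeks (left), BLZ945 mice of 11.29 weeks (middle) and Vehicle mice of 11.29 weeks (right), 4 mice per column with mean and SD. Gzma, Gzmb and Nkg7 are higher in every BLZ945 mouse of 11.29 weeks than in any Vehicle mouse of that age.

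**Figure D5:**
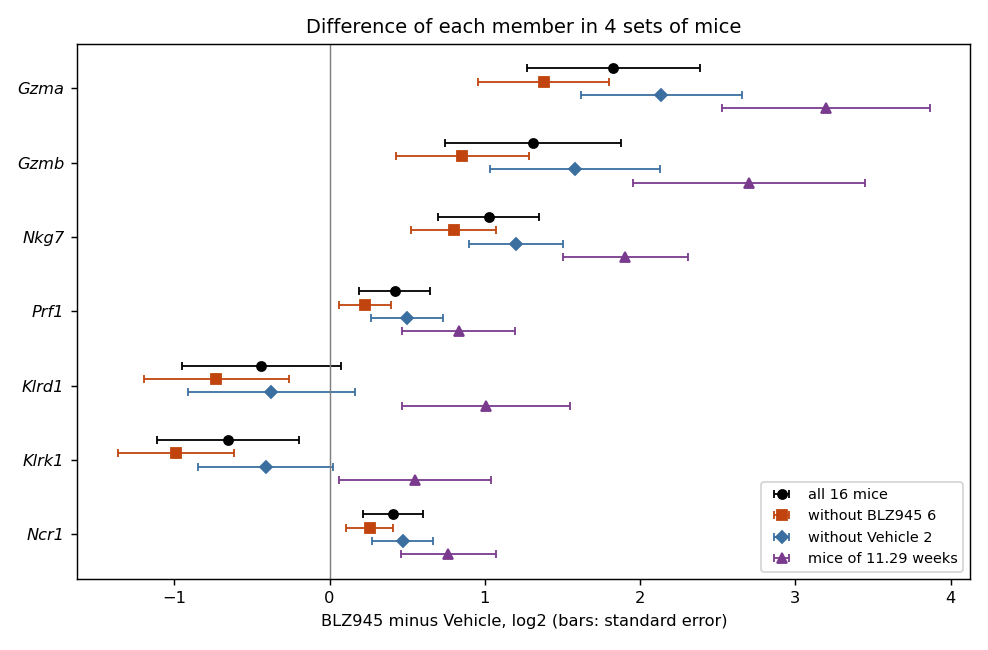
Difference of each member between BLZ945 and Vehicle in log2 units (horizontal axis, bars are standard errors) over all 16 mice, without BLZ945 6, without Vehicle 2 and in mice of 11.29 weeks alone. Gzma, Gzmb, Nkg7, Prf1 and Ncr1 lie above 0 in all 4 sets, while Klrd1 and Klrk1 lie above 0 only at 11.29 weeks.

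Sex was tested with the agent as covariate. All 7 members averaged higher in males than in females, against 46.9% of genes, and none passed, where 0.0323% of genes did, 0.0242% higher and 0.00807% lower. At an unadjusted p under 0.05 by limma the count was 0 of 7, against 9.8% of genes. For the interaction of agent and sex all 7 terms lay above 0, as did 44.1% of genes, and the count was 1 of 7, against 3.34%. That member was Ncr1, at 4.28 ± 0.54 in BLZ945 males and 3.52 ± 0.30 in BLZ945 females, with 3.35 ± 0.31 in Vehicle males and 3.44 ± 0.15 in Vehicle females (SD, n = 3, 5, 4 and 4). Its interaction of 0.85 (SE 0.32) had an adjusted p of 0.983 by limma.

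Among 21 other genes of granule contents and release, 2 rose and 1 fell, where 7.94% of all genes passed. Serpinb6b, a serpin of the family that includes granzyme inhibitors, rose by 1.02 (adjusted p = 0.0238) and Lyst, needed for lysosome-related granules, by 0.84 (adjusted p = 0.0461). Ctsc, the protease that activates granzymes, fell by 0.45 (adjusted p = 0.0181). The list's median difference was 0.22, against 0.07 over all genes, and macrophages also express many of these genes.

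Among 14 receptor partners and ligands, 2 rose and 1 fell, where 2.6% of all genes rose and 5.34% fell. Cd244a, the receptor 2B4 of natural killer cells, ran from 6.29 to 7.23 in BLZ945 mice, against 7.51 to 8.74 in Vehicle mice. The groups did not overlap, and Cd244a fell by 1.44 (adjusted p = 0.000113). Its ligand Cd48 rose by 0.57 (adjusted p = 0.0243), and Zap70, a kinase of T cell and natural killer receptors, rose by 0.68 (adjusted p = 0.0472). Cd48 and Zap70 were at their lowest BLZ945 value in BLZ945 6, the mouse with the highest members, and Cd244a was at its highest there. Tyrobp, the signalling adaptor that pairs with NKG2D in mouse, averaged 13.32 ± 0.13 in BLZ945 mice and 13.17 ± 0.11 in Vehicle mice, and did not pass (adjusted p = 0.332).

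Among 26 cytokines and transcription factors of cytotoxic cells, 2 rose and 0 fell by limma, where 2.6% of all genes rose and 5.34% fell. Prdm1, the repressor Blimp-1 of lymphocyte differentiation, rose by 0.76 (adjusted p = 0.00961) and the chemokine Ccl4 by 0.84 (adjusted p = 0.0166). The list's median difference was 0.25, against 0.07 over all genes.

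Markers of other lymphocytes were counted in the same way. Of 16 natural killer markers, Ncr1 among them, 2 rose, where 2.6% of all genes did. All 16 differences lay above 0, as did 61.1% of all genes, and their median was 0.32, against 0.07. The list's mean level ran from 3.87 to 4.24 in BLZ945 mice, against 3.35 to 3.93 in Vehicle mice, below every array's median. A shift shared by dim genes was not tested. Klrb1a, an NKR-P1 receptor, rose by 2.10 (adjusted p = 0.00415), and Cma1, a chymase also known from mast cells, by 0.78 (adjusted p = 0.00125). Klrb1a was at its lowest BLZ945 value, 4.88, in BLZ945 6, the mouse with the highest members. Of 18 T cell markers, Cd5 rose by 1.85 (adjusted p = 0.00194) and Icos by 0.61 (adjusted p = 0.00709). The T cell list's mean ran from 4.35 to 4.78 in BLZ945 mice, against 4.02 to 4.45 in Vehicle mice. Cd5 too was at its lowest BLZ945 value, 5.30, in BLZ945 6, where the T cell list's mean was at its highest. Without scanner intensities no marker could be called absent. The part of these cells in the members' differences was not tested.

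Over all genes 2.6% rose, 5.34% fell and the median difference was 0.07. Of 9 B cell markers, 1 rose, Cd22 by 1.27 (adjusted p = 0.000211), with 7 differences above 0 and a median of 0.17. Of 11 neutrophil markers, 1 rose, Csf3r by 0.80 (adjusted p = 0.0346), with 6 above 0 and a median of 0.06. Of 10 mast cell and basophil markers, 1 rose, Cpa3 by 1.12 (adjusted p = 0.0153), with 9 above 0 and a median of 0.33. No dendritic cell marker of 8, Klrd1 among them, passed, nor did any of 8 endothelial and pericyte markers. Of 14 macrophage and microglia markers 1 rose and 3 fell, with Tmem119 down by 1.64 (adjusted p = 0.000358), P2ry12 by 1.35 (adjusted p = 0.00699) and Itgam, which encodes the CD11b used in the sort, by 1.17 (adjusted p = 0.00807). Markers of glioma cells and oligodendrocyte precursors numbered 9, of which 4 fell and 0 rose, Pdgfra by 2.71 (adjusted p = 0.000441). Their median difference was -1.23, and 2 of the 9 lay above 0. Their part in the members' values was not tested.

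The genes outside these lists most like the members were ranked by Pearson r of their deviations with the members' mean deviation over 16 mice. They were Trbv1 (r = 0.94), a T cell receptor segment, Gimap4 (0.87), a GTPase of lymphocytes, Mndal (0.85), an interferon-inducible gene, S100a4 (0.85), Slamf7 (0.83), a receptor of natural killer and other immune cells, and Traf1 (0.83). Without BLZ945 6 these coefficients lay between 0.70 and 0.94. Mndal fell by 1.50 in BLZ945 mice (adjusted p = 0.0287), and the other 5 did not pass. Trbv1 had its highest value, 5.45, in BLZ945 6 and its highest Vehicle value, 3.51, in Vehicle 2, the same mice that led the members. It was picked for likeness to the members, so the shared peaks are no separate support. Trbv1 was also dim, with a Vehicle median of 2.71.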

How the data were processed

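The 16 arrays, 1 per mouse, were analysed as the authors' deposited log2 values per probe set. GCOS 1.4 and RMA are named in the submitters' processing notes, with no role for either. The software that ran RMA and the build are not given in the sources at hand. RMA removes background, equalizes arrays and combines the probes of a set, and it compresses differences of dim probe sets. Scanner intensities were not analysed here, so no call of presence could be made, and precision is limited by the number of arrays. Labels give each array as a separate mouse, so p-values measure the spread between these mice.

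Of 22690 probe sets, 20393 had 1 symbol in the platform annotation, 691 had several and 1606 had none. The brightest probe set by mean over all arrays stood for each of 12394 genes, with no filter. Agents were compared with limma 3.58.1 under R 4.3.3 (lmFit, eBayes), with Benjamini-Hochberg adjustment over all genes and a threshold of 0.05. Further fits took sex with agent as covariate, their interaction, and age within BLZ945. Single-gene tests were exact two-sided permutation tests over 12870 labellings, and correlations used 100000 permutations. The calculations were tested on simulated data.

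The members and lists were chosen with earlier results of these data known. Genes to name were drawn mostly from the members, Csf1r, the 6 most alike genes outside the lists and genes picked per list. Per list these were up to 3 genes past the threshold in order of p (the first 2 by p where none passed) and the 2 brightest. Not all of the genes picked per list are named here. The relative comparisons and their alternatives were chosen after seeing the data. Replicate numbers are shared between the groups but do not pair the mice: the deviations of same-numbered mice had r from -0.48 to 0.39, with 5 of 8 pairs over 0.1. Alternatives covered probe set choice, dim genes, quantile normalization, trended and robust eBayes, weights per array, covariates (sex, age cohort, array SD, tumour volume), subsets of mice, the replicate block and each mouse left out.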

Additional observations from a re-analysis of the deposited data

Results flagged for a closer look

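In 14 groups of 8 mice, 3 values stood far from the other mice of their group. Chance alone gives such a distance in about 1 in 20 groups of normally distributed values. The 14 groups are correlated genes in the same mice, so they are not independent. Gzma was 7.69 in Vehicle 2, where the next Vehicle mouse had 5.78. Gzmb was 6.91 in the same mouse, where the next had 5.14. Prf1 was 6.33 in BLZ945 6, where the next BLZ945 mouse had 5.12. The other Prf1 probe set read 4.48 in BLZ945 6, which was not its highest BLZ945 value. The cause was not tested.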

How the results depend on the processing

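The granzymes, Nkg7, Prf1 and Ncr1 averaged higher in BLZ945 mice under every alternative run, which for Gzma gave differences of 1.38 to 3.42 and adjusted p of 0.00831 to 0.449 by limma, passing in 14 of 30. The count of members passing, 0 with the deposited values and no covariate, was 1 with dim genes left out, quantile normalization, array SD as covariate or females alone, 2 with array weights, sex or age cohort as covariate, and 3 with sex and age cohort together. Fits with age cohort take the agent difference from mice of 11.29 weeks, the only age under both agents. The count of members passing was 0 to 2 leaving out each mouse. It was 2 without Vehicle 2, and 1 without BLZ945 3 (Nkg7), 4, 5, 6 or 7 (Gzma). With the replicate number as a block Gzma passed (adjusted p = 0.0252), so the count was 1, although the numbers do not pair the mice, with 2 mice correlating best with their own number. Within BLZ945, the count of members passing the adjusted test between the ages was 0 to 1 leaving out each mouse, 1 without BLZ945 3. The count over all genes, 984, was 215 with age cohort, 324 with sex and age cohort, 1644 with array SD, 15 with tumour volume in 14 mice, 89 at 11.29 weeks, 2 in males, 393 in females and 273 at a fold of at least 2, and 710 to 1188 leaving out each mouse. Calls were lower in BLZ945 for 67.3% of these genes, 57.3% after quantile normalization and 47.3% with array SD. Klrd1 turned to 1.01 with age cohort, 1.12 with sex and age cohort, 0.62 with tumour volume, 1.01 at 11.29 weeks and 0.47 in males. Klrk1 turned to 0.55, 0.75, 0.071 and 0.55 with the first 4 of these. The cause was not tested. Granzyme values relative to Klrk1 kept their direction in all alternatives run, with unadjusted exact permutation p of 0.000155 to 0.0286, not adjusted over the 12 pairs, and with Gzmb between 1.84 and 2.12 leaving out each mouse. Dim genes such as Ncr1 are limited by signal that RMA compresses.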

Other observations

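Among genes of the lists, those most like the members from mouse to mouse, named after their values were seen, were Ctsw (r = 0.88 over 16 mice), a protease of cytotoxic lymphocytes, Ifng (0.86), Ms4a1 (0.82), Stat4 (0.81), Cd3d (0.78) and Ccl5 (0.76). Without BLZ945 6 these lay between 0.55 and 0.82. Ifng, the cytokine interferon gamma, was 5.24 in BLZ945 6, where the next BLZ945 mouse had 3.62 and the highest Vehicle mouse 3.37. Ccl5 was 11.96 in BLZ945 6 and 10.39 in Vehicle 2, the highest mouse of each group. These genes were picked for likeness to the members, so peaks shared with them are no separate support. None of the 6 passed the test between the agents.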
